A study of Homo sapiens with 2 samples.

Results

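Among the LDB1 peaks of a human leukemia cell line, 1028 lay away from any transcription start site (TSS) and carried the composite DNA element of the LDB1 complex at their centre. They are called distal composite peaks here. A peak was taken when its midpoint lay more than 1000 bp from every TSS of GENCODE release 44 and when the 200 bp around the midpoint held the letters CTG, then 7 or 8 bases of any kind, then a GATA motif. The GATA motif was GATA with A or T before it and A or G after it, and both strands of hg38 were searched. Of 11046 peaks in all, 8906 were distal, and the 1028 made up 11.5% of these (95% Wilson interval 10.9 to 12.2%). A further 202 peaks with the composite lay within 1000 bp of a TSS, which is 9.44% of the 2140 peaks there (8.27 to 10.8%).

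The peaks came from CUT&Tag, in which a transposase is guided by an antibody to a protein on chromatin and inserts sequencing adapters beside it. The cells were NB4, an established line of human acute promyelocytic leukemia. The series held 2 libraries, 1 made with an LDB1 antibody from cells labelled as LDB1 overexpression and 1 made with IgG from cells labelled as untreated, so antibody and treatment cannot be told apart. The study's methods describe CUT&Tag on NB4 cells without mention of overexpression, so whether the LDB1 library came from overexpressing cells rests on the label alone. With 1 library per group no test between groups was possible, and each interval below covers counting error within the LDB1 library alone. The deposited list holds positions and lengths without any height, and how many reads lie behind a peak is unknown.

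LDB1 does not bind DNA. In blood cells it joins through LMO2 to TAL1 and its E-protein partners, which bind the E-box, and to a GATA factor, which binds the GATA motif. A DNA element that holds both sites at a fixed distance, often with the E-box reduced to its last letters, CTG, is known from red cell genes. LDB1 also forms dimers and is known for bringing distant enhancers and promoters together.

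The composites below are from peaks nearest to genes of the complex itself and of red cells, shown because red cell genes are where the element is known. The last is from a long peak in NPRL3, a gene on neither list that lies beside the alpha-globin genes. Each is read 5′ to 3′ on its own strand from the hg38 sequence, with 6 bases on either side. The CTG and the GATA motif are in capitals.
GATA2: atggcgCTGgcgacagcAGATAAgcctta
LMO2: agttagCTGcttcagaAGATAAtatcca
SSBP3: agccgcCTGtagcgtcaAGATAAagtcca
LMO4: atcagtCTGggactgcaAGATAAggagtc
ALAS2: ctgagcCTGcagaccacAGATAAagttgc
UROD: tcaaggCTGgagagacTGATAAgaagac
EPB41: cggagcCTGtggggcgcTGATAAgcttgg
HBE1: tataggCTGgcaggctcAGATAGgtggtt
NPRL3: ggctgaCTGtggtcccTGATAGgttcca

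One peak, 21936 bp downstream of the TSS of SLC4A1, held 2 composites within a few bases of each other on opposite strands, each with 7 bases between its parts. Its central 200 bp (chr17:44246098-44246297, hg38, plus strand) are printed whole to show that arrangement, with the letters of both composites in capitals and the composite of the minus strand appearing as its reverse complement.
SLC4A1 window: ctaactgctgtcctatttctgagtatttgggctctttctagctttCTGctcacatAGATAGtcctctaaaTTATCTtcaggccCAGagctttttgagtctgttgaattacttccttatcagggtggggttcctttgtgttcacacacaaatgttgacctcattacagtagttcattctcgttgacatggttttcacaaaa

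To see how common the element is in sequence of the same length, windows 1000 bp to either side of each distal peak and all distal 200 bp tiles of hg38 were searched too. The composite was found in 1.68% of the flanks (299 of 17812 windows) and in 1.41% of the tiles. The flanks of the distal composite peaks themselves held a further composite in 1.36% (0.944 to 1.96%). When CTG was replaced by CAG, its reverse complement, 4.21% of distal peaks and 1.59% of flanks had a match. With GTC in its place the shares were 1.36% and 0.634%, and with GAC they were 1.13% and 0.679%. The GATA motif with no condition on CTG was found in 49.4% of distal peaks and 28.6% of flanks.

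The genome was then counted the other way round, asking what share of all sites of a given form lay in the central 200 bp of an LDB1 peak. There were 6741732 distal GATA motifs in hg38, of which 0.0925% lay in such a window. Of the 208504 with CTG 7 or 8 bases ahead, 1055 did so, or 0.506% (0.476 to 0.537%), which is 5.47 times the share of all GATA motifs. Among the 64 trinucleotides that can stand at this place CTG had the highest share. CGG followed at 0.348% (0.269 to 0.451%), TGG at 0.321% (0.296 to 0.347%) and GTG at 0.274% (0.250 to 0.300%). The 7 highest all had 2 or 3 letters that were G or C, and the 3 lowest held A and T only. The other 5 orders of the letters C, T and G ranged from 0.104 to 0.232%.

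This share varied with the distance between the parts. With 8 bases between CTG and the GATA motif, 0.651% of the sites in hg38 lay in a peak centre (0.603 to 0.703%, 659 sites). With 7 bases the share was 0.369% (0.335 to 0.407%, 396 sites), and the ratio of the 2 shares was 1.76. At 9 bases, a distance outside the definition of the composite, it was 0.225% (0.199 to 0.253%). At the other 18 distances from 0 to 20 bases the share lay between 0.106 and 0.208%. With CAG ahead it lay between 0.101 and 0.234% over all distances.

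**Figure D1:**
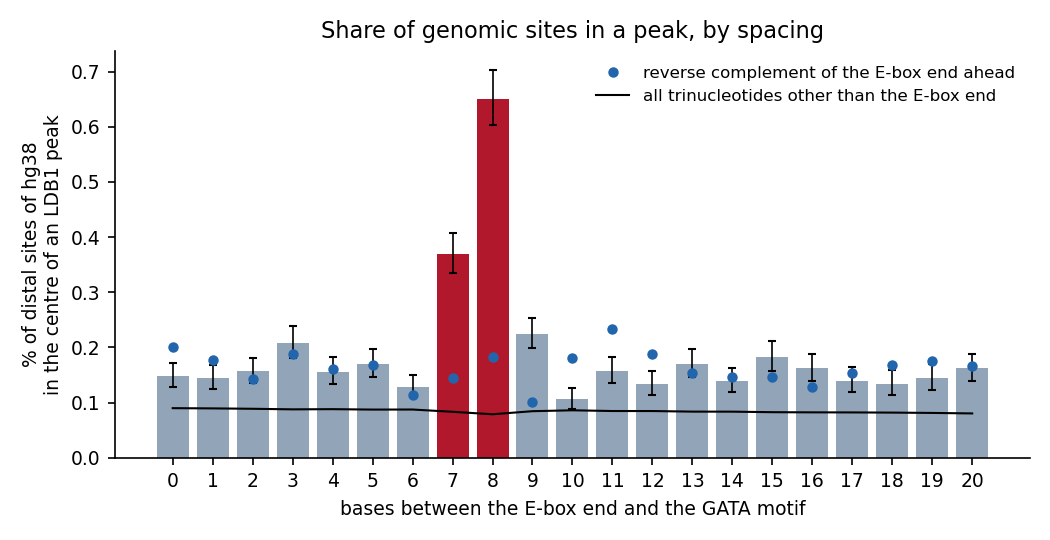
Share of distal sites of hg38 that lie in the central 200 bp of an LDB1 peak (vertical axis, %) by the number of bases between the E-box end (CTG) and the GATA motif (horizontal axis). Bars are sites with CTG ahead with their 95% Wilson intervals, red at the distances of the composite, dots are sites with CAG ahead, and the line is all trinucleotides other than CTG. The bars at 8 and 7 bases, at 0.651 and 0.369%, stand above the rest.

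The 1028 peaks held 1056 composites in their central 200 bp. A single composite was found in 1000 peaks and 2 composites in 28. The distance was 8 bases in 660 composites (62.5%, 59.5 to 65.4%) and 7 bases in 396, and 18 peaks held both. In flanks 8 bases made up 57.2% (51.6 to 62.7%), an interval that overlaps. As shares of windows, distal peaks exceeded flanks 7.59 times at 8 bases, 6.05 times at 7 bases and 5.32 times at 9 bases. The plus strand carried 47.3% of them (44.3 to 50.3%).

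The 4 forms of the GATA motif were not equal. AGATAA made up 54.8% of the composites in distal composite peaks (51.8 to 57.8%) and 40.8% of those in flanks (35.4 to 46.4%). TGATAA made up 24.5%, AGATAG 14.7% and TGATAG 5.97%, where flanks had 28.0%, 18.4% and 12.8%. Of all distal composites of hg38, 0.802% of those with AGATAA lay in a peak centre (0.739 to 0.870%). The share was 0.454% for TGATAA (0.402 to 0.512%), 0.356% for AGATAG (0.304 to 0.417%) and 0.176% for TGATAG (0.137 to 0.225%). The interval of TGATAA met that of AGATAG, while those of AGATAA and TGATAG stood clear of all others.

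A whole E-box (CANCTG) in place of CTG alone was present in 140 composites, or 13.3% (11.3 to 15.4%), against 7.24% of composites in flanks (4.83 to 10.7%). By sequence, 63 had CATCTG, 54 had CAGCTG, 13 had CAACTG and 10 had CACCTG. Of the composites of hg38 with a whole E-box, 0.817% lay in a peak centre (0.693 to 0.963%), and of those with CTG only 0.478% did (0.448 to 0.510%). The share was 1.57% for CAGCTG (1.20 to 2.04%), 0.832% for CATCTG (0.651 to 1.06%), 0.429% for CAACTG (0.251 to 0.733%) and 0.324% for CACCTG (0.176 to 0.595%). The interval of CAGCTG stood above the other 3, and that of CAACTG overlapped both CATCTG and CACCTG. An example of CAGCTG is a peak upstream of LMO4, and an example of CATCTG lies in an intron far upstream of TNP1.
LMO4, second peak: tgccagCTGgaggttgAGATAAtcacag
TNP1: gcccatCTGggactagaAGATAAaatggg

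Bases beside the defined letters differed as well. At a distance of 8 bases, 1.49% of hg38 composites followed directly by G lay in a peak centre (1.33 to 1.67%). The share was 0.946% before C, 0.342% before A and 0.251% before T. G was the next base in 45.8% of the composites in distal composite peaks (42.8 to 48.8%). Directly ahead of CTG the lowest share was that of A, at 0.270% (0.213 to 0.342%), and the highest that of G, at 0.951%. The first base after CTG was likewise lowest for A, at 0.257%. The second base ahead of CTG is A in a whole E-box. There the share was 0.491% for A (0.418 to 0.578%), 0.724% for C, 1.16% for G (1.02 to 1.32%) and 0.441% for T. A at that place alone was therefore not the base with the highest share. At positions 6 bases away from the composite, C and G were also above A and T, at 0.857% and 0.849% against 0.473% and 0.570% on the GATA side. After these shares had been seen, a joined form was counted, with CAGCTG, 8 bases and G directly after AGATAA. Of the 147 distal sites in hg38 with CAGCTG, 8 bases and AGATAAG, 11 lay in a peak centre (7.48%, 4.23 to 12.9%).

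Since the peak list has no summits, the place of the composite was measured from the midpoint of the peak. The composite nearest to the midpoint had its centre less than 20 bp from it in 245 of the 1028 peaks (23.8%, 21.3 to 26.5%). In steps of 20 bp outward the shares were then 22.6%, 22.3%, 20.5% and 10.8%, and the last step is short by construction because the whole composite had to fit into the window. Over all distal peaks, composites were 7.88 times as dense within 20 bp of the midpoint as at 500 to 1000 bp from it (252 and 799 composites counted). For the GATA motif of any kind the same ratio was 1.96. The rise of composites was broad. In steps of 20 bp there were 15.3 and 13.0 per 1000 distal peaks on the 2 sides of the midpoint. At 100 to 120 bp, just outside the window, there were still 13.0 and 11.3.

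**Figure D2:**
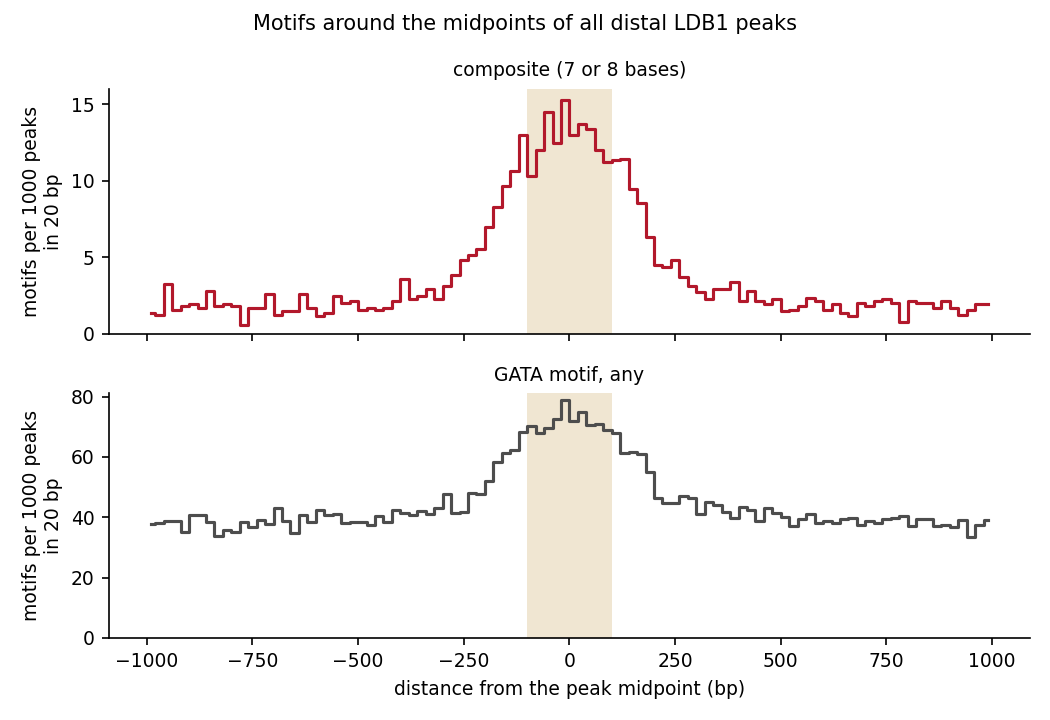
Number of composites (top) and of GATA motifs (bottom) per 1000 distal LDB1 peaks in steps of 20 bp (vertical axes) against the distance of the motif centre from the peak midpoint in bp (horizontal axis). The shaded band is the 200 bp window used to choose the peaks, and the lines cover all 8906 distal peaks. Composites are 7.88 times and GATA motifs 1.96 times as dense within 20 bp of the midpoint as at 500 to 1000 bp.

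Length is the only measure of a peak in the list, and it was not used to choose the peaks. Distal composite peaks had a median length of 544 bp (interval of the median 529 to 564 bp), with quartiles of 380 and 698 bp and a range from 229 to 3128 bp. Here and below, peaks without composite or without a GATA motif lack it in the central 200 bp only. With whole peaks searched, 2046 distal peaks held a composite. Distal peaks with a GATA motif but no composite had a median of 466 bp (457 to 477 bp, 3371 peaks), and distal peaks without a GATA motif one of 407 bp (401 to 416 bp, 4507 peaks). These 3 intervals did not meet. Composite peaks within 1000 bp of a TSS had a median of 577.5 bp (541 to 621 bp), which overlaps that of the distal ones. The difference lay in the middle of the range and not in the longest peaks. The fixed window of 200 bp covers a smaller part of a long peak, and composites outside it were not counted. These values therefore do not show how common composites are in whole long peaks. A length of 1000 bp or more was reached by 9.63% of distal composite peaks (7.97 to 11.6%), 8.40% of the other GATA peaks and 11.2% of peaks without the motif. A length of 2000 bp or more was reached by 0.778%, 0.979% and 1.66%.

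Seen from the side of length, the share of distal peaks with a composite was 6.49% from 229 to 313 bp (5.54 to 7.59%) and 9.42% above that up to 446.5 bp. It was 16.2% up to 659 bp (14.7 to 17.8%), 15.95% up to 997.5 bp and 11.2% (9.31 to 13.5%) in longer peaks. Each of these shares is for the central window only, whatever the length of the peak. Among the distal composite peaks the median length was 549 bp with 8 bases (534 to 572 bp) and 526 bp with 7 bases (488 to 563 bp). It was 562.5 bp with AGATAA (533 to 578 bp) and 530.5 bp with TGATAG (420 to 592 bp), so neither distance nor GATA form separated the peaks by length. The 28 peaks with 2 composites had a median of 650 bp (490 to 865 bp), against 543 bp for those with 1.

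**Figure D3:**
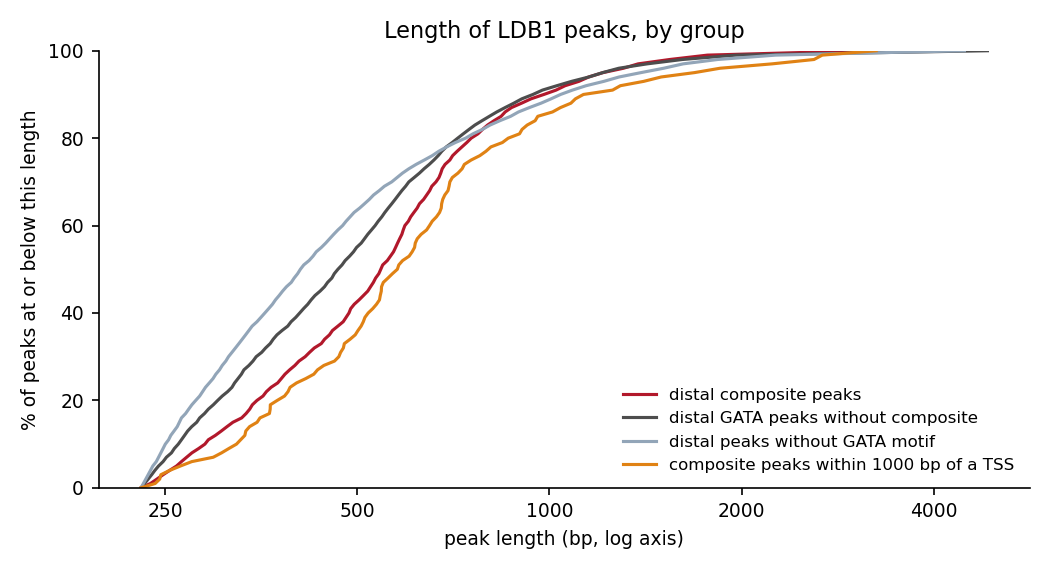
Cumulative share of LDB1 peaks (vertical axis, %) at or below a given length (horizontal axis, bp, log axis) for 4 groups of peaks. Distal composite peaks (median 544 bp) run to the right of distal GATA peaks without composite (466 bp) and of distal peaks without a GATA motif (407 bp) up to about the upper quartile. Among the longest peaks the line of peaks without a GATA motif crosses to the right. At 95% it is at 1391.4 bp, against 1213.3 bp for distal composite peaks and 1211.5 bp for the other GATA peaks.

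Most distal composite peaks lay within genes. Midpoints were in introns in 591 peaks (57.5%, 54.4 to 60.5%), in exons in 50 (4.86%) and between genes in 387 (37.6%), counting all annotated transcripts, coding or not. The shares were close to those of the other GATA peaks, at 58.0%, 5.55% and 36.5%, and of distal peaks without the motif, at 58.0%, 6.55% and 35.4%. In the canonical transcripts of protein-coding genes, 411 lay in an intron, of which 31.6% were in intron 1 (27.3 to 36.3%), against 35.3% for the other GATA peaks (32.8 to 37.9%). Only 9 lay in coding exons.

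The median distance to the nearest TSS of any transcript was 9538 bp (8833 to 10770 bp), with quartiles of 3993.75 and 20797.5 bp and a maximum of 223623 bp. It was 8421 bp (8003 to 8896 bp) for the other GATA peaks and 8136 bp (7756 to 8400 bp) for peaks without the motif. To the nearest protein-coding TSS the medians were 25741 bp (22383 to 28091 bp), 22523 bp (20952 to 24006 bp) and 21932 bp, and the first 2 of these intervals overlapped. The share of distal peaks with a composite was 10.7% from 1 to 5 kb of a TSS (9.64 to 11.9%), 10.3% from 5 to 10 kb, 12.5% from 10 to 50 kb and 15.1% beyond 50 kb (12.1 to 18.5%). Length went the opposite way. Distal composite peaks at 1 to 5 kb had a median of 583 bp (558 to 610 bp), and the 72 beyond 50 kb had one of 379.5 bp (341 to 466 bp). Among the other GATA peaks the medians at the same distances were 489.5 bp (469 to 509 bp) and 399 bp (356 to 438 bp). Nearest to the limit of 1000 bp, the peaks just inside the definition lay 1002, 1010 and 1013 bp from a TSS, at PTRH2, ST6GALNAC4 and CDH23, and composite peaks just outside it lay at 955, 945 and 944 bp.

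The windows held 49.8% G and C on average, compared with 49.5% for the other GATA peaks and 52.9% for peaks without the motif. The central 31 bases of the peak occurred more than once in hg38 in 7.68% of distal composite peaks (6.21 to 9.48%), 9.64% of the other GATA peaks (8.69 to 10.7%) and 13.9% of peaks without the motif. Per Mb of sequence they were most frequent on chromosome 19, at 0.633, and chromosome 22, at 0.587, and least on chromosome 4, at 0.179, and X, at 0.207. As a share of the distal peaks of a chromosome they ranged from 8.44% on chromosome 17 (6.26 to 11.3%) to 16.7% on chromosome 13 (11.5 to 23.6%).

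Motifs of other blood factors were searched on both strands of the same windows after the letters of the composite had been left out. The other GATA peaks and the flanks were searched over all 200 bp, a somewhat longer sequence. A second GATA motif was found in 41.8% of the distal composite peaks (38.8 to 44.9%) and in 30.5% of their flanks (28.5 to 32.5%). A further E-box (CANCTG) was found in 47.4% (44.3 to 50.4%), where their flanks had 42.8% and the other GATA peaks 50.6%. With the letters of the composite kept, 56.6% of the distal composite peaks had an E-box (53.6 to 59.6%), so the order depends on this choice. The AP-1 motif (TGACTCA) was found in 8.75% (7.18 to 10.6%), against 3.40% of the flanks and 10.5% of the other GATA peaks. The longer NFE2 motif, which contains that of AP-1, was found in 5 of the 1028 (0.486%, 0.208 to 1.13%) and in 1.22% of the other GATA peaks (0.898 to 1.65%).

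The RUNX motif (TGTGGT or TGCGGT) was found in 18.8% of distal composite peaks (16.5 to 21.3%), 20.5% of the other GATA peaks (19.1 to 21.9%) and 15.95% of the flanks. The ETS motif (CGGAAGT or AGGAAGT) was found in 5.35%, 6.44% and 4.28% in the same order. The KLF motif (CCACACCC, CCACGCCC, CCCCACCC or CCCCGCCC) was found in 12.5%, 11.4% and 7.93%. The CEBP motif (TTGCNNAA), bound by the C/EBP factors of granulocytes, was found in 9.24% (7.62 to 11.2%), 7.80% (6.94 to 8.76%) and 10.4%. For each of RUNX, ETS, KLF, AP-1, NFE2 and CEBP the intervals of distal composite peaks and other GATA peaks overlapped. A match is a description of the sequence and does not show that the factor was bound.

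To describe the genes beside these peaks, each was given to the protein-coding gene with the nearest TSS. Nearness does not show that a gene is a target. The 1028 peaks went to 933 genes, which is 4.74% of the 19689 protein-coding genes. A gene had 1 peak in 848 cases, 2 in 76, 3 in 8 and 4 in 1. Of the same genes, 11.8% were nearest to a distal GATA peak without composite and 21.1% to a distal peak of any kind. The shares of the gene lists below are read against these values.

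Of 40 red cell genes, 11 (27.5%, 16.1 to 42.8%) were nearest to a distal composite peak, each to 1. Among them were ALAS2, ANK1, CPOX, EPB41, HBE1, RHAG, RHD, SLC4A1, SPTB and UROD. The same list had 17 genes (42.5%) nearest to a distal GATA peak without composite and 27 (67.5%) nearest to a distal peak of any kind. Counted over peaks and not genes, 1.07% of distal composite peaks went to red cell genes (0.599 to 1.91%), as did 0.742% of the other GATA peaks (0.503 to 1.09%) and 1.02% of distal peaks without the motif (0.766 to 1.36%). These intervals overlapped, so a difference between the groups of peaks was not detectable at this number of peaks. RHD has a near-identical gene copy beside it, and the central 31 bases of its peak occur 2 times in hg38, so which copy the reads came from is uncertain.

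Among the red cell genes, those of heme synthesis were ALAS2, which encodes the first enzyme of the pathway in red cells, UROD and CPOX. The ALAS2 peak (chrX:55027665-55028594, 930 bp) lay in intron 1 of the gene, 2847 bp from its TSS. The UROD peak (chr1:45038682-45039641, 960 bp) lay in intron 7 of ZSWIM5, 26254 bp from the UROD TSS. Of the membrane and skeleton genes, EPB41, which encodes protein 4.1, had the longest peak (chr1:28883043-28885356, 2314 bp), 2892 bp upstream of its TSS. The peak nearest to SLC4A1, which encodes the band 3 anion exchanger, was 2011 bp long (chr17:44245193-44247203) and is the one with 2 composites shown above. The ANK1 peak (871 bp) lay in intron 1 of that gene, which encodes the ankyrin that ties the skeleton to band 3. The peak nearest to HBE1, the embryonic globin gene, lay 14778 bp upstream of its TSS (chr11:5284295-5285152, 858 bp), on the side where the locus control region of the beta-globin genes is found.

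Of 20 genes of the LDB1 complex and its partners, 4 (20%, 8.07 to 41.6%) were nearest to 6 distal composite peaks. The share fell to 10% when only a TSS within 50 kb was taken, and also to 10% by gene body with 3 kb on either side, while the hepatocyte list stood at 12% and 8% under the same settings. The GATA2 peak (chr3:128495324-128495802, 479 bp) lay 2362 bp upstream of its TSS, in an intron of a noncoding transcript. Of the 2 peaks given to LMO2, the bridge between LDB1 and TAL1, the longer (chr11:33944538-33945751, 1214 bp) lay 53068 bp upstream of the TSS and the shorter, of 259 bp, 65941 bp upstream. The peak of SSBP3, which encodes a protein that binds and stabilises LDB1, lay in its intron 4 (chr1:54375427-54376250, 824 bp). The 2 peaks given to LMO4, a relative of LMO2 that also binds LDB1, lay 148486 bp upstream and 422704 bp downstream of the TSS and were 320 and 362 bp long. LDB1, TAL1, LYL1, GATA1 and RUNX1 were nearest to no distal composite peak. In the same list 10 genes (50%) were nearest to a distal GATA peak without composite and 15 (75%) to a distal peak of any kind. By peaks, 0.584% of distal composite peaks went to the list (0.268 to 1.27%). It was 0.623% of the other GATA peaks (0.408 to 0.951%) and 1.11% of distal peaks without the motif (0.843 to 1.46%). These intervals overlapped.

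Of 25 stem cell and progenitor genes, 6 (24%, 11.5 to 43.4%) were nearest to 7 distal composite peaks. In this list 10 genes (40%) were nearest to a distal GATA peak without composite and 15 (60%) to a distal peak of any kind. By peaks, 0.681% of distal composite peaks went to the list (0.330 to 1.40%). It was 0.831% of the other GATA peaks (0.575 to 1.20%) and 0.754% of distal peaks without the motif (0.540 to 1.05%). These intervals overlapped. MYB, a transcription factor of blood progenitors, had a distal composite peak of 1059 bp in its intron 5 (chr6:135191724-135192782), 6235 bp from its TSS. ZEB2, a zinc finger repressor, had one of 1368 bp that lay 61959 bp upstream of its TSS and another of 420 bp at 1172199 bp. The peaks given to SOX4 and CD34 were 430 and 293 bp long and lay 491979 and 23939 bp upstream. GFI1, a transcriptional repressor, and ETV6 were the remaining genes. The peaks of ZEB2 and SOX4 all lay over 50 kb from the TSS, so the 24% rests in part on far assignments. The share of this list with a TSS within 50 kb only was not counted.

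Of 25 genes of mast cells, basophils and eosinophils, 3 (12%, 4.17 to 29.96%) were nearest to such a peak. HDC, which encodes the enzyme that makes histamine, had a peak of 1691 bp in its intron 2 (chr15:50259874-50261564), 2710 bp from its TSS. KIT, the receptor of stem cell factor, had one of 402 bp lying 184077 bp upstream, and GATA2, also on the list of the complex, was the remaining gene. Of 30 neutrophil and granule genes, 2 (6.67%, 1.85 to 21.3%) were nearest to one, GFI1 and CSF3R, and their peaks were 643 and 383 bp long and over 30 kb from the TSS. None of the 25 megakaryocyte and platelet genes was (0 to 13.3%), and 6 of them (24%) were nearest to a distal GATA peak without composite. By peaks, 0% of distal composite peaks (0 to 0.372%) and 0.326% of the other GATA peaks (0.182 to 0.583%) went to that list. These 2 intervals overlapped. None of the 25 T and B cell genes was nearest to a distal composite peak either. For each list in this paragraph the interval holds 4.74%, the share of all protein-coding genes.

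Lists of genes from unrelated tissues were counted in the same way. Of 25 hepatocyte genes 3 (12%) were nearest to a distal composite peak, TF, CYP3A4 and TTR, and 2 (8%) were nearest to a distal GATA peak without composite. Of 25 neuron genes 3 were nearest to a distal composite peak, SLC32A1, CAMK2A and RBFOX3, and 0 to a distal GATA peak without composite. No distal peak without the motif went to a neuron gene either, and with a gene body of 3 kb on either side the neuron share was 4%. By peaks, 0.292% of distal composite peaks went to the neuron list (0.0993 to 0.854%). This interval overlapped that of the other GATA peaks (0 to 0.114%) but not that of distal peaks without the motif (0 to 0.0852%). For the hepatocyte list the intervals by peaks overlapped. The TF peak (chr3:133753157-133754744, 1588 bp) was the longest of these and lay in intron 3 of the canonical transcript of this gene, which encodes the iron carrier transferrin, and in an exon of another annotated transcript. The TTR peak lay in intron 5 of the neighbouring gene B4GALT6. With lists of this size the intervals of the unrelated tissues (4.17 to 29.96%) overlapped that of the red cell list. They also overlapped those of the LDB1 complex and progenitor lists.

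**Figure D4:**
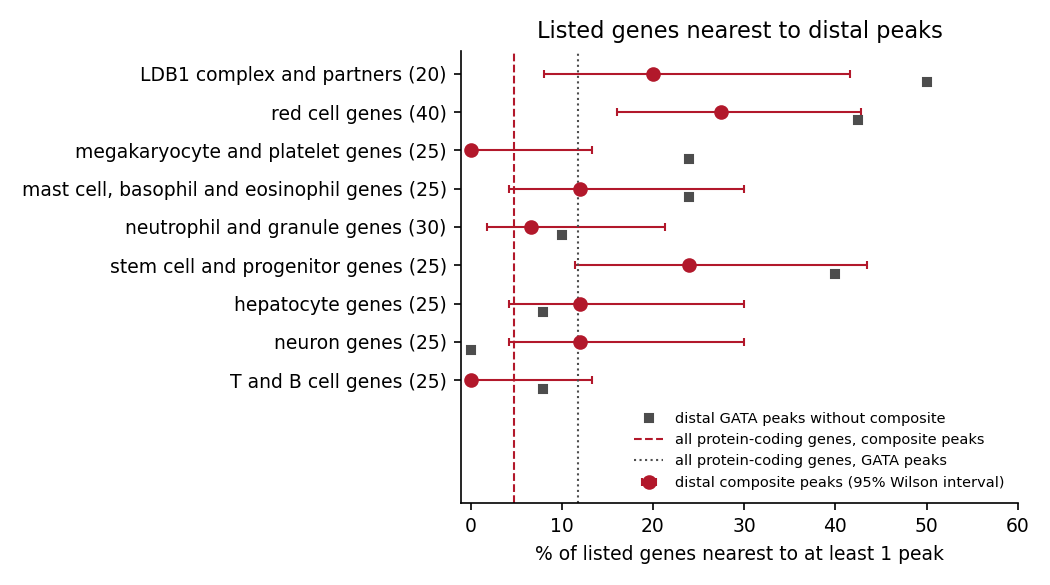
Share of the genes of each list (horizontal axis, %, number of genes in parentheses) that were the nearest protein-coding gene of at least 1 distal composite peak (circles, bars are 95% Wilson intervals) or of at least 1 distal GATA peak without composite (squares). The dashed and dotted lines are the shares among all protein-coding genes, 4.74% and 11.8%. The circles of red cell genes (27.5%), progenitor genes (24%) and LDB1 complex genes (20%) are followed by several at 12%, and their intervals overlap those of the unrelated tissues. No limit was set on the distance from peak to TSS.

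The longest distal composite peaks were examined next. The longest, of 3128 bp (chr4:1783851-1786978), lay 7879 bp upstream of FGFR3, which encodes a growth factor receptor. It was followed by one of 2586 bp in intron 5 of NPRL3 (chr16:112170-114755). NPRL3 encodes a subunit of a regulator of mTOR signalling, and its introns are known to hold distant enhancers of the alpha-globin genes. Its composite, with TGATAG and 7 bases, was of the form with a low share in the genome count, and no other GATA motif lay in its central 200 bp. The next were upstream of ASIC1 (2326 bp), at EPB41, near ERAL1 (2274 bp), near SLC30A10 (2129 bp), at ECE1 (2036 bp) and near SLC4A1. The ninth lay in intron 2 of BCL2L1, which encodes an inhibitor of apoptosis, though by protein-coding TSS it went to COX4I2, 38135 bp away (peak of 1859 bp), and the last near LRRC32 (1852 bp). None of the 10 had a whole E-box, 6 had 7 bases and 4 had 8 bases by the composite nearest to the midpoint.
FGFR3: cctggcCTGgctggccTGATAAgctgcc
ASIC1: tacaagCTGggcgtcgAGATAAagcggg
ERAL1: ggatctCTGgctggctgAGATAAtctctc
ECE1: gggttgCTGcgaggcgtTGATAAtacatg
COX4I2: ctcgcaCTGctaggccTGATAGctttct

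The genes nearest to most distal composite peaks were of mixed function, and several were nearest to many distal peaks of any kind. NDUFV2, a subunit of respiratory complex I, had 4 of its 12 distal peaks, at 93575 to 181554 bp from its TSS, and 1 of these had central bases that occur 6 times in hg38. TENT5C, a poly(A) polymerase, had 3 of 17, within 54707 bp, and ATF7IP2 had 3 of 5, within 62777 bp. MAD1L1, of the mitotic spindle checkpoint, had 3 of 10. TNP1 and TXNDC2, both known from sperm, had 3 of 17 and 3 of 20. For TMEM132C, COX7C and SUCLG1, with 3 of 13, 3 of 5 and 3 of 4, the farthest peak was 1109253, 793885 and 507704 bp away, and all of their peaks were 617 bp long or shorter. The longest TMEM132C peak had central bases that occur 8 times in hg38. ASIC1 had 2 of 5.

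Along the chromosomes, 132 of the 1028 peaks (12.8%) lay within 50 kb of another and formed 64 runs. The same share was not counted for other distal peaks, so it does not show whether composite peaks group more than those do. The run with the greatest summed length held 3 peaks in 10600 bp on chromosome 12 between RACGAP1 and ASIC1, with lengths of 1514, 418 and 2326 bp. Runs of 3 also lay at TENT5C (50057 bp, with 14 distal peaks in all), upstream of NDUFV2 (11015 bp) and at ATF7IP2 (40006 bp). In the NDUFV2 run all of the distal peaks were composite peaks, each with AGATAA and 8 bases. A run of 2 lay in TBC1D22B, nearest to TMEM217 and RNF8, and both of its composites had a whole E-box of the CAGCTG form.
NDUFV2, first of the run: ctagggCTGcaactaaaAGATAAtacatg
NDUFV2, next: ccagggCTGcaggacagAGATAAgaagca
NDUFV2, last of the run: ggtgtcCTGtttcttaaAGATAAgcagag
TMEM217: gagcagCTGgcttcagcAGATAAagaagc
RNF8: taacagCTGggccagggTGATAAgacaca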

How the data were processed

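NB4 cells were profiled by CUT&Tag in 1 library for LDB1 and 1 for IgG, and the peak list of the former was analysed here. Per the methods and the submitters' processing notes, paired-end reads were aligned to hg38 with Bowtie2 2.4.4 and peaks were called with MACS3 3.0 at a q-value limit of 0.01. Use of the IgG library as control is not stated. Without a control, regions of open or repeated sequence could enter the list. The authors deposited coordinates and a length in bp per peak, with no score, signal, q-value or summit.

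Coordinates count from 1, since each length equalled end minus start plus 1. Midpoints, motifs and distances were computed with Python 3.11.15 and numpy 2.4.6 on hg38 and GENCODE release 44. Flanks were 200 bp windows 1000 bp to either side. In the genome count a site was distal by its own distance to a TSS. Shares carry 95% Wilson intervals and medians their order-statistic interval. They cover counting error only, and peaks of 1 library are not replicates. Figures were drawn with matplotlib 3.10.9, and the motif search was tested on simulated data.

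The peaks, the gene lists and the naming rule were chosen with earlier results of these data known. Named were the 10 longest peaks, the 10 genes nearest to most peaks, up to 6 peaks for each gene list, 5 peaks with most composites and 5 runs. Alternatives were another distance for distal, another window, distance or peak set, and other gene assignments. No sequence from chromosome 8 is shown. One gene of the red cell list is counted but not reported by name.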

Additional observations from a re-analysis of the deposited data

How the results depend on the processing

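No paired analysis was possible because there was only 1 library per group. Of 88 alternative values for 29 results, 62 stayed within their counting interval or, for counts, within 1.5 times, and 26 moved. Most alternatives share peaks with the main setting and the gene list intervals are wide, so staying inside one is a weak check. The red cell share, 27.5% as reported, was 20% with 3000 bp as the limit of distal. It was 22.5% with central 31 bases found once, 25% by gene body and 27.5% with a TSS within 50 kb only. All of these counted as staying. The moves follow in part from how the alternatives were built, and other causes were not tested. Depth limits are unknown without read counts.

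With 3000 bp as the limit of distal, 40.7% of the peaks were intergenic and the median TSS distance was 12616 bp. In a window of 100 bp there were 503 distal composite peaks, or 5.65% of distal peaks, with a whole E-box in 15.5% of composites, and the further motifs fell to 10.1% for RUNX, 4.57% for AP-1, 22.3% for GATA and 24.1% for the E-box. Searching whole peaks gave 2046 peaks and 8 bases only gave 653. The share of distal peaks with a composite was 15.1% in distal peaks above the median length and 9.99% in peaks of at most 600 bp.

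Counting sites anywhere inside a peak, 1.08% of hg38 composites were in one (1.42% with 8 bases, 0.766% with 7 bases, 1.66% with AGATAA, 0.471% with TGATAG). With peaks above the median length the values were 0.332%, 0.444%, 0.226%, 0.544% and 0.100% in the same order. The ratio of 8 to 7 bases and that of AGATAA to TGATAG stayed within their intervals. By gene body with 3 kb on either side, 0% of neutrophil genes and 4% of neuron genes had a distal composite peak, and the LDB1 complex list was at 10%, as it was with a TSS within 50 kb only. Joining within 20 kb put 5.84% of the peaks in runs.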
